A study of Homo sapiens with 6 samples.

Results

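The ABC transporters are a family of membrane pumps and related proteins, and their transcripts were read here by 96 probe sets for 42 genes, out of 54613 non-control probe sets on the array, which name 19775 genes. Members were the probe sets that the array's annotation pairs with a single symbol of the form ABCA to ABCG plus a number, with pseudogenes whose symbols end in P and a number left out. Of the 42 genes, 13 had a single probe set and 29 had several, and all 96 probe sets matched a RefSeq gene by Entrez identifier. RefSeq lists 1 of these genes, ABCC13, as a transcribed pseudogene in human. Each of 6 Affymetrix U133 Plus 2.0 arrays measured RNA pooled from 3 flasks of an established human osteosarcoma line. The KHOS arrays came from cells transfected for 48 hours with a plasmid for the microRNA miR-1 (pEP-miR-1), cells transfected for 48 hours with the empty plasmid (pEP-miR-Null), and control cells. The U-2OS arrays came from the same set of conditions, again with miR-1, miR-null and control. The labels name no plasmid for the controls, and do not say whether those cells saw the transfection reagent. Each line and condition had 1 array, so replication came only from the other line or the other conditions. KHOS is a line transformed by the Kirsten sarcoma virus, and U-2OS comes from a different tumour.

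ABC proteins bind ATP through a conserved cassette and use it to move substrates across membranes. ABCB, ABCC and ABCG pumps of the cell surface export drugs and their conjugates, and P-glycoprotein, the product of ABCB1, is known for removing doxorubicin, a mainstay of osteosarcoma treatment. ABCA1 and ABCG1 hand cholesterol to lipoproteins, ABCD proteins serve peroxisomes and lysosomes, several ABCB proteins sit in mitochondria, and ABCE1 and the ABCF proteins have no membrane part and act on ribosomes. ABCC8 and ABCC9 carry nothing and instead set the opening of ATP-sensitive potassium channels.

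The sequences that follow belong to the microRNA that was delivered and to the members whose values stood out. The mature strand of miR-1 comes from RefSeq (GRCh38.p14) at chr20:62554351-62554372 on the plus strand, with capitals for the seed, bases 2 to 8, through which it pairs with target transcripts.
hsa-miR-1-3p: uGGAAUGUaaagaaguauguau
RefSeq windows of the 250 bases before a transcription start, on the same build, were found for 33 of the 42 genes. Capitals mark the CCAAT box (CCAAT), the GC box (GGGCGG), the TATA box (TATAAA) and the E-box (CACGTG), each searched on both strands, and no capital base belonged to more than 1 of them. Over all 35116 windows in the table, 32.0% held a CCAAT box, 42.6% a GC box, 10.7% a TATA box and 6.34% an E-box. ABCB1 had the largest difference between the lines. It has another listed start, whose window held none of these motifs, and the window printed (chr7:87600885-87601134, minus strand) held CCAAT boxes that begin at positions -238 and -79 from the start.
ABCB1: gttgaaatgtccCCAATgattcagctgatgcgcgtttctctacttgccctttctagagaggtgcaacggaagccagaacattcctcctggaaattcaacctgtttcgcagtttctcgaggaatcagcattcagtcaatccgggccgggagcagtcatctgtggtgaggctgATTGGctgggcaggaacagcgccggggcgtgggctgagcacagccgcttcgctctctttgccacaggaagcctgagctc
ABCA1 had the largest difference in the other direction. Its window (chr9:104928156-104928405, minus strand) held 3 GC boxes, an E-box that begins at position -147 and a TATA box at -31.
ABCA1: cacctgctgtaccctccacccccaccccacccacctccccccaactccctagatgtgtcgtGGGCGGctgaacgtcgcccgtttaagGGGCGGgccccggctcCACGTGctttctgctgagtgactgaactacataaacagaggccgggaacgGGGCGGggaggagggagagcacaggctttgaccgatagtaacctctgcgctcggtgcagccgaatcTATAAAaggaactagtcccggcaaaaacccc
ABCC9 differed between the lines in its change with a vector, and its window (chr12:21941427-21941676, minus strand) held 1 GC box, on the opposite strand.
ABCC9: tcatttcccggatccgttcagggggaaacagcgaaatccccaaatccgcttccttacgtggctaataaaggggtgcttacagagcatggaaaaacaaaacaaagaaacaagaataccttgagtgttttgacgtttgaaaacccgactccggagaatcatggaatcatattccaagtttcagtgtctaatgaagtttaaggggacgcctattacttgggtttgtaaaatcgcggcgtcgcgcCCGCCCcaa
ABCD3 was lower in vector arrays, and its window (chr1:94418139-94418388, plus strand) held 4 GC boxes.
ABCD3: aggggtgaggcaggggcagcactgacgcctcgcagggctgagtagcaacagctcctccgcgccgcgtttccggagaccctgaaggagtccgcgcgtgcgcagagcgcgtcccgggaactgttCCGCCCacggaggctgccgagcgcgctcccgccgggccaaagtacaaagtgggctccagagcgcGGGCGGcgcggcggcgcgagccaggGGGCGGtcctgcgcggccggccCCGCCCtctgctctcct
A match is a description of these letters and not a measured binding site.

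The deposited values are log2 expression after RMA, a method that corrects background, brings the probes of all arrays to a shared distribution and then summarises each probe set. The deposited values themselves did not lie on a shared distribution. Array medians ran from 4.98 to 5.02 in KHOS and from 5.07 to 5.15 in U-2OS. Interquartile ranges ran from 3.24 to 3.35 in KHOS and from 2.75 to 3.07 in U-2OS, so the spread of values differed with the line. Line calls lost after a further quantile normalization are named below. Arrays of different lines correlated at 0.910 to 0.937 and arrays of the same line at 0.978 to 0.996. Of 96 member probe sets, 39 had a mean at or above the median of all probe sets (5.11) and 57 lay below it, where RMA compresses differences. For 18 of the 42 genes every probe set lay below it. All were tested, without a filter on level. Hybridisation spike-ins, control RNAs added to each sample, averaged 9.76 to 10.13 in KHOS and 10.81 to 11.65 in U-2OS, and their part in the line differences was not tested. Of 8 osteoblast and mesenchymal markers 3 were higher in KHOS (VIM 0.95, RUNX2 4.32 and CDH11 5.65) and 4 lower (COL1A1 -0.67, SPARC -0.66, ALPL -0.56 and THY1 -1.66), and VIM, the vimentin gene, had 14.21 to 14.30 on the KHOS arrays and 13.15 to 13.62 on the U-2OS arrays. Of 4 epithelial markers 1 was higher in KHOS, EPCAM, at 8.43 to 8.70 against 5.49 to 5.96 in U-2OS, and 1 lower, KRT8. The 3 blood markers differed between the lines by -0.16 to 0.05, none of them called. PTPRC, the pan-leukocyte gene, read 3.53 to 3.75 over all arrays, CD3E 5.07 to 5.36 and HBB 7.07 to 7.40. Of 3 endothelial markers 1 was lower in KHOS, VWF (-0.58), and of 4 muscle markers 1, MYOD1 (-0.57).

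KHOS and U-2OS differed most in a few members of each role. On some or all of their probe sets, KHOS had far less ABCB1, less of the conjugate exporter gene ABCC3, and more ABCA1, ABCG1, ABCC10, ABCC4, ABCD3, ABCB6 and ABCE1. KHOS also had less of the sulfonylurea receptor gene ABCC9, with a narrower gap in the control arrays than in the vector arrays. For all of these genes but ABCB1, ABCC10 and ABCD3, other probe sets of the gene did not pass. In limma, with treatment as a term over all 6 arrays, 22 of 96 probe sets passed a Benjamini-Hochberg adjusted p below 0.05, 12 higher and 10 lower in KHOS (12 and 6 with each array centred on its median). They stood for 15 genes, 9 higher and 6 lower, and 0 genes had probe sets called in both directions. Over all 54613 probe sets 33.6% passed (17.9% higher and 15.7% lower in KHOS), so the members' share of 22.9% lay below the background. At an unadjusted p below 0.05 there were 28 members, against 44.4% of all probe sets. The median line difference was -0.08 for the members and -0.10 for all probe sets, and the median size without sign was 0.21 against 0.30. No line and condition had replicate arrays. The p-values therefore rest on how the line difference varied between treatments, together with limma's prior variance. Flasks were pooled before labelling, so the spread between cultures was not measured.

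**Figure D1:**
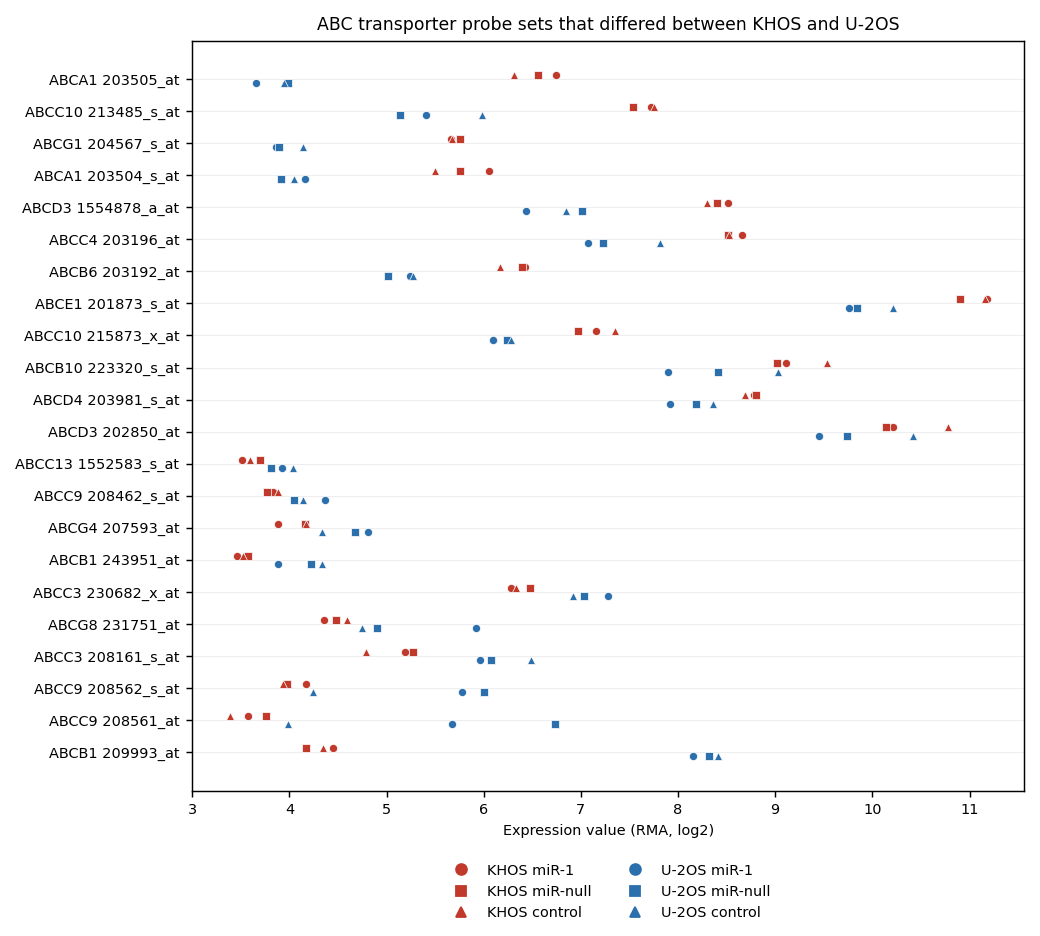
Expression values (RMA, log2) of the 22 member probe sets called between the lines, with KHOS in red and U-2OS in blue, circles for miR-1, squares for miR-null and triangles for control. The top 12 rows are higher in KHOS and the bottom 10 are lower in KHOS. Positions can be compared within a row and not between rows, because probe sets differ in their response to the same RNA.

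ABCB1, the P-glycoprotein gene, separated the lines most widely. Its probe set 209993_at read 4.45, 4.17 and 4.35 on the KHOS miR-1, miR-null and control arrays, against 8.15, 8.31 and 8.41 on the same arrays of U-2OS. The lines did not overlap, and treatment moved neither by more than 0.28 (log2). The difference was -3.97 ± 0.20 (log2, SE; adjusted p = 5.14e-08 in limma), a level 15.7-fold lower in KHOS, and since the KHOS values lie below the median of all probe sets this may understate it. A second ABCB1 probe set, 243951_at, was lower too with 3.46, 3.57 and 3.53 in KHOS (miR-1, miR-null, control), against 3.88, 4.22 and 4.33 in U-2OS, a difference of -0.62 ± 0.12 (SE, adjusted p = 0.00156). Another probe set is annotated to both ABCB1 and ABCB4, was no member by the rule and is not read here as either.

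The other drug efflux genes were split. ABCC10, which encodes MRP7, an exporter of taxanes and conjugates, had 7.72, 7.53 and 7.75 in KHOS (miR-1, miR-null, control), against 5.40, 5.13 and 5.98 in U-2OS, on its probe set 213485_s_at. It was 4.47-fold higher in KHOS (2.16 ± 0.21, SE, adjusted p = 9.38e-06), and 215873_x_at, with 7.16, 6.97 and 7.35 in KHOS (miR-1, miR-null, control), against 6.10, 6.24 and 6.28 in U-2OS, showed 0.95 ± 0.19 (adjusted p = 0.00267). ABCC4, which encodes MRP4, an exporter of cyclic nucleotides, had 8.66, 8.51 and 8.52 in KHOS (miR-1, miR-null, control), against 7.07, 7.23 and 7.82 in U-2OS, on 203196_at. All KHOS arrays were above all U-2OS arrays, by 1.19 ± 0.21 (SE, adjusted p = 9.52e-04), although its 3 other probe sets had differences of 0.01 to 0.32 that did not pass. ABCC3, which encodes MRP3, an exporter of glucuronide conjugates, had 5.19, 5.27 and 4.79 in KHOS (miR-1, miR-null, control), against 5.96, 6.08 and 6.49 in U-2OS, on 208161_s_at.

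That ABCC3 probe set was lower in KHOS, with a difference of -1.09 ± 0.22 (log2, SE, adjusted p = 0.00233). A second, 230682_x_at, had 6.28, 6.48 and 6.34 in KHOS (miR-1, miR-null, control), against 7.28, 7.04 and 6.92 in U-2OS. It was lower, with a difference of -0.71 ± 0.20 (adjusted p = 0.0164), a call lost without the KHOS or U-2OS miR-null array (-0.79 for either) or miR-1 array (-0.57 for either). The 3 other ABCC3 probe sets had differences of -0.37, -0.24 and -0.24, which did not pass. ABCC1, which encodes MRP1, an exporter of glutathione conjugates, had differences of 0.28 and 0.42 that did not pass (adjusted p = 0.233 and 0.128), with 95% intervals of -0.10 to 0.66 and -0.02 to 0.86. ABCG2, which encodes the breast cancer resistance protein, had 6.89, 6.67 and 6.61 in KHOS (miR-1, miR-null, control), against 6.26, 6.65 and 5.81 in U-2OS. The lines overlapped and the difference of 0.49 did not pass (95% interval 0.02 to 0.95, adjusted p = 0.0987). ABCC2, ABCC5 and ABCC11 did not pass either, with differences of -0.20 for ABCC2, 0.05 to 0.33 for the 3 probe sets of ABCC5, and -0.23 and -0.10 for ABCC11. In all, the drug efflux genes had 3 probe sets higher in KHOS, 4 lower and 15 not called, out of 22, where 33.6% of all probe sets were called.

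Among the lipid transporters ABCA1 and ABCG1 were higher in KHOS on some of their probe sets, and ABCG4 and ABCG8 were lower. ABCA1, which loads cholesterol and phospholipid onto apolipoprotein A-I, read 6.75, 6.56 and 6.31 on the KHOS miR-1, miR-null and control arrays, against 3.66, 3.99 and 3.95 on those of U-2OS, on its probe set 203505_at. Its difference of 2.68 ± 0.19 (log2, SE, adjusted p = 9.84e-07) was the largest positive one among the members, 6.39-fold, and may be understated, since the U-2OS values lie below the median of all probe sets. A second probe set, 203504_s_at, had 6.06, 5.76 and 5.50 in KHOS (miR-1, miR-null, control), against 4.16, 3.91 and 4.05 in U-2OS, and gave 1.73 ± 0.17 (adjusted p = 1.19e-05), while 1570279_at and 216066_at had -0.06 and -0.12 and did not pass. ABCG1, which passes cholesterol on to high-density lipoprotein, had 5.67, 5.75 and 5.68 in KHOS (miR-1, miR-null, control), against 3.87, 3.89 and 4.14 in U-2OS, on 204567_s_at.

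The ABCG1 difference was 1.73 ± 0.16 (log2, SE, adjusted p = 8.03e-06), and its 3 other probe sets had differences of -0.26 to 0.13 that did not pass. ABCG4, a sterol transporter mainly of the nervous system, had 3.88, 4.16 and 4.18 in KHOS (miR-1, miR-null, control), against 4.81, 4.67 and 4.33 in U-2OS. It was lower in KHOS, with a difference of -0.53 ± 0.16 (SE, adjusted p = 0.0263), a call lost without the miR-null (-0.54) or the miR-1 array (-0.34) of either line, without the variance trend (-0.53), after quantile normalization (-0.40) and with centred arrays (-0.41). ABCG8, a partner in the intestinal and biliary sterol pump, was lower, with a difference of -0.71 ± 0.24 (adjusted p = 0.0383). Its values were 4.36, 4.48 and 4.59 in KHOS (miR-1, miR-null, control), against 5.92, 4.90 and 4.74 in U-2OS, so the U-2OS miR-1 array stood apart. Without the miR-1 array of U-2OS or that of KHOS the difference was -0.29 and the call was lost, as it was without the variance trend (-0.71), after quantile normalization (-0.62), with centred arrays (-0.60) and with treatment left out (-0.71). Its partner ABCG5 had -0.15 and did not pass. Thus 3 lipid probe sets were higher in KHOS, 2 lower and 30 not called, out of 35, a smaller share than the 33.6% of all probe sets. The genes not called included ABCA2, ABCA3 of lung surfactant, ABCA4 of the retina, ABCA5 of lysosomes, ABCA7, ABCA12 of the skin barrier, ABCB4 of bile phospholipid and ABCB11 of bile salt export, as well as ABCA6, ABCA8, ABCA9 and ABCA13.

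**Figure D2:**
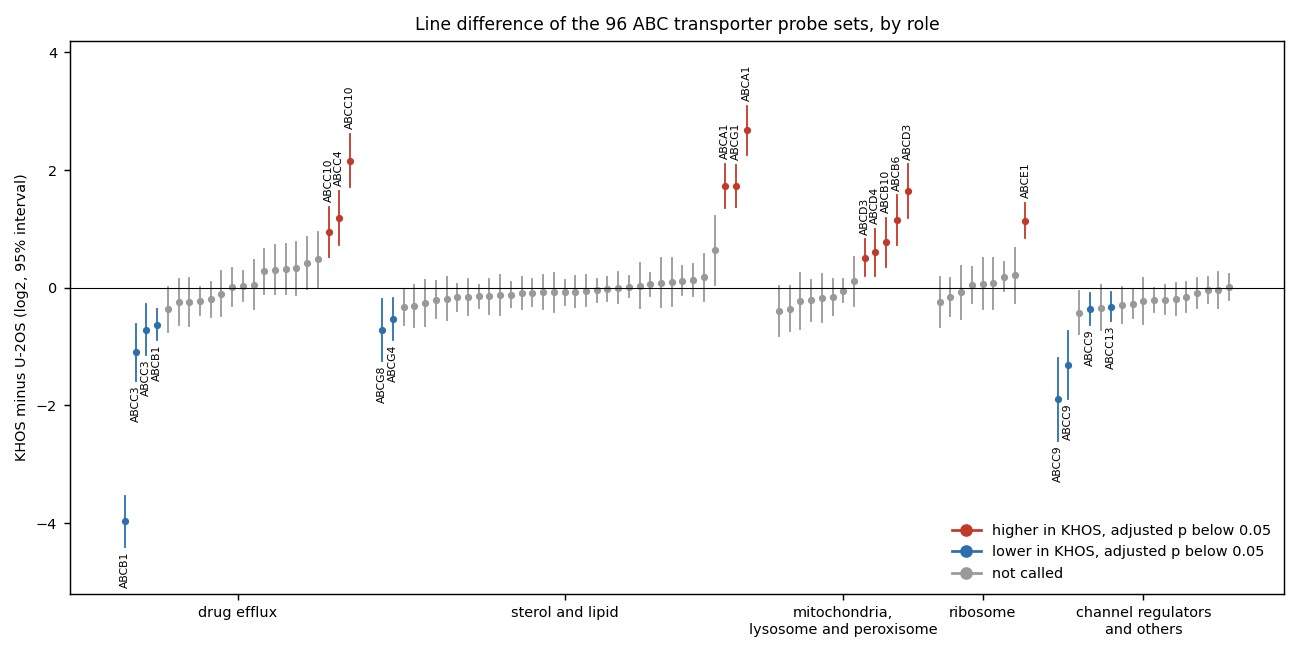
KHOS minus U-2OS difference (log2, vertical axis) of the 96 member probe sets with its 95% interval from limma, grouped along the horizontal axis by role and ordered by size. Red points are higher and blue points lower in KHOS at an adjusted p below 0.05, and grey points were not called. ABCB1 lies at -3.97 and ABCA1 at 2.68, and most probe sets lie near 0.

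Members of mitochondria, lysosomes and peroxisomes had 5 of 13 probe sets higher in KHOS and 0 lower, where 17.9% of all probe sets were higher and 15.7% lower. In either direction, their share called was near the 33.6% of all probe sets. The 5 calls stood for 4 genes. ABCD3, which encodes PMP70, a transporter of the peroxisome membrane, had 8.51, 8.41 and 8.30 in KHOS (miR-1, miR-null, control), against 6.43, 7.01 and 6.84 in U-2OS, on 1554878_a_at. That is a difference of 1.64 ± 0.21 (log2, SE, adjusted p = 7.60e-05), and the lines did not overlap. On 202850_at it had 10.22, 10.14 and 10.78 in KHOS (miR-1, miR-null, control), against 9.45, 9.74 and 10.42 in U-2OS, where the lines overlapped and the difference was 0.51 ± 0.14 (adjusted p = 0.0171). The call of 202850_at was lost without the miR-null (0.56) or the miR-1 array (0.38) of either line, after quantile normalization (0.25) and with treatment left out of the fit (0.51). ABCB6, a porphyrin transporter, had 6.42, 6.40 and 6.17 in KHOS (miR-1, miR-null, control), against 5.24, 5.01 and 5.27 in U-2OS, on 203192_at, a difference of 1.15 ± 0.19 (adjusted p = 6.15e-04).

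The other ABCB6 probe set, 203191_at, had -0.36 and did not pass. ABCB10, a mitochondrial inner membrane transporter needed for haem synthesis, had 9.11, 9.02 and 9.53 in KHOS (miR-1, miR-null, control), against 7.90, 8.42 and 9.03 in U-2OS. The lines overlapped only in the U-2OS control, and KHOS was higher by 0.77 ± 0.19 (log2, SE, adjusted p = 0.00773), and the call was lost without the miR-1 array of either line (0.55), after quantile normalization (0.43) and with treatment left out of the fit (0.77). ABCD4, a lysosomal transporter of vitamin B12, had 8.79, 8.80 and 8.69 in KHOS (miR-1, miR-null, control), against 7.92, 8.19 and 8.36 in U-2OS. It was higher by 0.60 ± 0.18 on 203981_s_at (adjusted p = 0.0251), a call lost without the miR-null (0.60) or the miR-1 array (0.47) of either line and after quantile normalization (0.25), and had -0.21 on 203982_s_at. ABCB8, ABCB9 and ABCD2 did not pass.

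Among the ribosome factors ABCE1, which splits ribosomes after termination, gave unlike answers on its 2 probe sets. On 201873_s_at it had 11.18, 10.90 and 11.16 in KHOS (miR-1, miR-null, control), against 9.76, 9.84 and 10.22 in U-2OS, a difference of 1.14 ± 0.14 (log2, SE, adjusted p = 5.51e-05). On 201872_s_at it had 11.11, 11.07 and 11.16 in KHOS (miR-1, miR-null, control), against 10.78, 10.94 and 11.05 in U-2OS, a difference of 0.19 that did not pass (95% interval -0.06 to 0.44). ABCF1, ABCF2 and ABCF3, which are linked to translation and its control, had 7 probe sets between -0.24 and 0.21, none of them called.

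Of the 17 probe sets for channel regulators and the remaining members, 4 were lower in KHOS and 0 higher, and 3 of the 4 read ABCC9. Of all probe sets 15.7% were lower and 17.9% higher. In either direction, the share called in this role was smaller than the 33.6% of all probe sets. ABCC9, which encodes the SUR2 subunit of potassium channels, was lower on 3 of 5 probe sets, with differences of -1.90 ± 0.32 on 208561_at (log2, SE, adjusted p = 7.61e-04) and -1.31 ± 0.26 on 208562_s_at (adjusted p = 0.00229). In the control arrays those probe sets read 3.39 and 3.93 in KHOS against 3.99 and 4.24 in U-2OS, a narrower gap than in the vector arrays described further on. On 208462_s_at, with 3.83, 3.77 and 3.89 in KHOS (miR-1, miR-null, control), against 4.37, 4.04 and 4.14 in U-2OS, the difference was -0.36 ± 0.12 (adjusted p = 0.0432), lost without the miR-null (-0.40) or the miR-1 array (-0.27) of either line, without the variance trend (-0.36), after quantile normalization (-0.25) and with centred arrays (-0.24). Of 4 probe sets of the pseudogene ABCC13 1 was lower, 1552583_s_at, with 3.52, 3.70 and 3.59 in KHOS (miR-1, miR-null, control), against 3.92, 3.81 and 4.03 in U-2OS, a difference of -0.32 ± 0.11 (adjusted p = 0.0477), lost without the control (-0.26) or the miR-1 array (-0.28) of either line, without the variance trend (-0.32), after quantile normalization (-0.23) and with centred arrays (-0.20). ABCC8, which encodes the pancreatic channel subunit SUR1, and ABCB5 and ABCC12 did not pass.

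Probe sets of one gene often disagreed. Of the 12 called genes with several probe sets, every probe set was called for 3, ABCB1, ABCC10 and ABCD3. For 3 of the 15 called genes, ABCC13, ABCE1 and ABCG1, the probe set with the highest mean was not the one called. Probe sets read different parts of a transcript, and those with identifiers ending in x_at or s_at can bind several transcripts. Without regard to the test, the 3 KHOS and 3 U-2OS arrays did not overlap for 41 of 96 member probe sets, or 42.7%, against 49.3% of all probe sets. KHOS lay wholly above for 15 of them and wholly below for 26, against 20.3% and 29% of all probe sets.

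The vector arrays, miR-1 and miR-null together, were set against the control array of each line to show what a plasmid and its delivery went with. Of the members, 1 of 96 passed in limma, ABCD3, against 1.44% of all probe sets (0.547% higher and 0.897% lower with a vector). At an unadjusted p below 0.05 there were 6 members, against 13.3% of all probe sets. ABCD3 202850_at read 10.22 and 10.14 in KHOS with miR-1 and miR-null against 10.78 in its control, and 9.45 and 9.74 in U-2OS against 10.42 in its control. Both vector arrays lay under the control in each line, and the change was -0.71 ± 0.13 (log2, SE, adjusted p = 0.0308), or -0.60 in KHOS and -0.82 in U-2OS. The other ABCD3 probe set had 0.02 (95% interval -0.42 to 0.46), so the fall was seen on 1 of 2 probe sets. The call was lost without the miR-1 or miR-null array of KHOS (-0.74 and -0.71) or of U-2OS (-0.63 and -0.76), without the U-2OS control (-0.60), without the variance trend (-0.71) and with centred arrays (-0.75).

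The next largest falls did not pass. ABCB10 had -0.67 ± 0.18 (log2, SE, adjusted p = 0.109 in limma), with 9.11 and 9.02 in KHOS vector arrays against 9.53 in the KHOS control, and 7.90 and 8.42 in U-2OS vector arrays against 9.03 in the U-2OS control. ABCC5, which encodes MRP5, an exporter of cyclic nucleotides, had -0.50 on 209380_s_at, with 7.94 and 7.95 in KHOS vector arrays against 8.10 in the KHOS control, and 7.32 and 7.45 in U-2OS vector arrays against 8.23 in the U-2OS control. For both genes the gap to control was wider in U-2OS, and without the KHOS control, which leaves U-2OS alone to give the change, ABCB10 (-0.88) and ABCC5 (-0.84) passed, as did 2 probe sets of ABCC9 (2.22 and 1.64). ABCC10 had -0.42 on 213485_s_at, and ABCF2 had -0.35 on 214232_at, with 6.58 and 6.29 in KHOS vector arrays against 6.70 in the KHOS control, and 6.60 and 6.63 in U-2OS vector arrays against 7.05 in the U-2OS control.

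On the positive side the ABCC9 probe sets at 1.25 and 0.89 were followed by ABCG2, with 6.89 and 6.67 in KHOS vector arrays against 6.61 in the KHOS control, and 6.26 and 6.65 in U-2OS vector arrays against 5.81 in the U-2OS control, a change of 0.40. ABCA2, a lipid transporter of the brain, had 4.76 and 4.75 in KHOS vector arrays against 4.61 in the KHOS control, and 5.04 and 5.15 in U-2OS vector arrays against 4.48 in the U-2OS control on 210099_at, a change of 0.38. ABCA7 had 5.33 and 5.49 in KHOS vector arrays against 5.27 in the KHOS control, and 5.38 and 5.38 in U-2OS vector arrays against 4.81 in the U-2OS control, a change of 0.35. All of these lay above control in both lines, more so in U-2OS, and had adjusted p of 0.149 or more. By at least 1.2-fold in both lines 3 members were lower with a vector (ABCB10, ABCD3 and ABCF2) and 1 higher (ABCC9), against 5.42% and 3.26% of all probe sets. ABCB1 had -0.11 (95% interval -0.50 to 0.29) on 209993_at. The members' median change was 0.01 and that of all probe sets 0.02.

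Array controls moved with the vectors too. Hybridisation spike-ins averaged 9.93 and 10.13 in KHOS with miR-1 and miR-null against 9.76 in its control, and 11.65 and 11.33 in U-2OS against 10.81 in its control. Among 8 osteoblast and mesenchymal markers, COL1A1, SPARC and CDH11 fell with the vectors (log2 changes of -1.18, -0.665 and -1.51), as did 1 of 4 epithelial markers, KRT18 (-0.41), while 0 of 3 blood, 0 of 3 endothelial and 0 of 4 muscle markers were called. The part of either in the members' values was not tested.

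**Figure D3:**
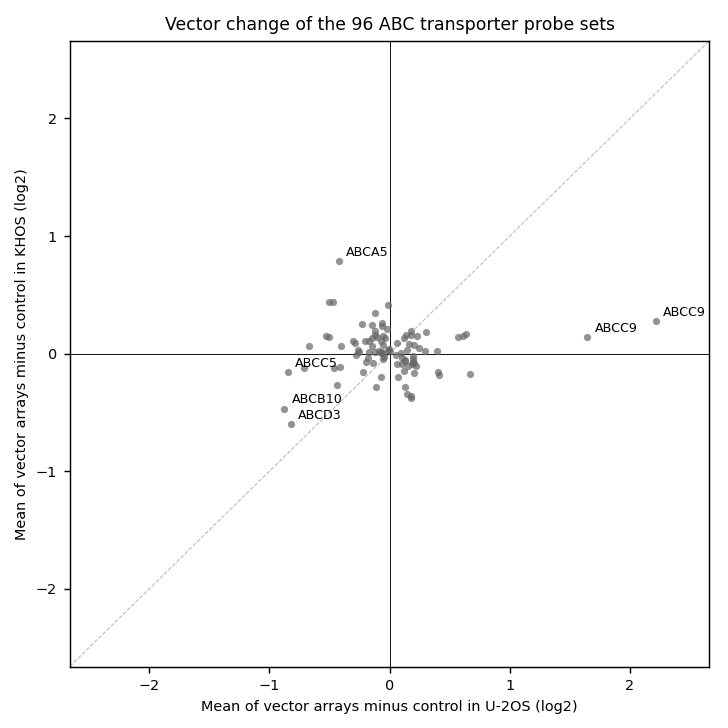
Mean of the 2 vector arrays minus the control array (log2) for the 96 member probe sets, in KHOS on the vertical and U-2OS on the horizontal axis, with a dashed line where both are equal. Probe sets beyond 0.75 in either line are named. The ABCC9 probe sets lie at 0.27 in KHOS and 2.22 in U-2OS and at 0.14 in KHOS and 1.64 in U-2OS, and ABCD3 lies at -0.60 and -0.82.

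Whether the lines changed differently with a vector was tested by an interaction term, the KHOS change minus the U-2OS change. By this term 1 of 96 members passed, ABCC9, against 1.63% of all probe sets (1.47% with a positive and 0.159% with a negative value). At an unadjusted p below 0.05 there were 10 members, against 14.6% of all probe sets. ABCC9 208562_s_at read 4.17 and 3.98 in KHOS with miR-1 and miR-null against 3.93 in the KHOS control, and 5.78 and 5.999 in U-2OS with miR-1 and miR-null against 4.24 in the U-2OS control. Both U-2OS vector arrays were far above every other array, and KHOS stayed within 0.24 of its control. The vector change in KHOS minus that in U-2OS was -1.503 ± 0.30 (log2, SE, adjusted p = 0.0283 in limma). ABCC9 208561_at showed the same pattern, with 3.57 and 3.75 in KHOS vector arrays against 3.39 in its control, and 5.67 and 6.74 in U-2OS vector arrays against 3.99 in its control. Its difference of -1.94 ± 0.46 had an adjusted p of 0.0539 and did not pass.

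The 3 other ABCC9 probe sets lay between 3.64 and 4.37 on all arrays, with vector changes in U-2OS of -0.20 to 0.06. Each line had 1 control array, so this comparison rests on those values, and the call of 208562_s_at was lost without the KHOS miR-null (-1.40) or the KHOS miR-1 array (-1.60), without the variance trend (-1.503) and after quantile normalization (-1.51). It held without either U-2OS vector array (-1.39 and -1.61). Of 8 osteoblast and mesenchymal markers 1, RUNX2, passed this test too, with 9.83 and 9.85 in KHOS vector arrays against 8.98 in the KHOS control, and 4.23 and 4.72 in U-2OS vector arrays against 6.74 in the U-2OS control; its part was not tested. KCNJ8 and KCNJ11, which encode channel pores that join the sulfonylurea receptors, had line differences in the vector change of 0.24 and -0.22 that did not pass.

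**Figure D4:**
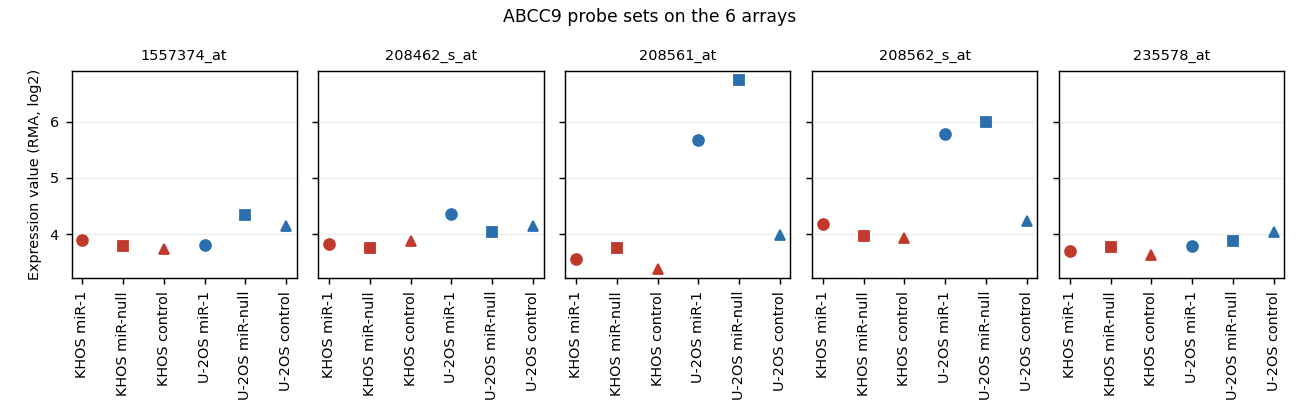
Expression values (RMA, log2) of the 5 ABCC9 probe sets on the 6 arrays, 1 panel each, with KHOS in red and U-2OS in blue and the conditions miR-1, miR-null and control from left to right. On 208561_at and 208562_s_at the U-2OS miR-1 and miR-null arrays lie between 5.67 and 6.74 and the U-2OS controls at 3.99 and 4.24, whereas the KHOS arrays lie between 3.39 and 4.17.

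No other member passed the interaction test. ABCA5, linked to lysosomal cholesterol, had the largest positive value with 6.87 and 6.50 in KHOS vector arrays against 5.90 in the KHOS control, and 5.45 and 5.84 in U-2OS vector arrays against 6.07 in the U-2OS control. It thus lay above control in KHOS and below it in U-2OS, with a difference of 1.21 ± 0.36 (log2, SE, adjusted p = 0.119 in limma). It passed, at 1.41, when U-2OS miR-null was left out. ABCB9, a lysosomal peptide transporter, had 0.94 on 214209_s_at, with 5.09 and 5.25 in KHOS vector arrays against 4.73 in the KHOS control, and 5.20 and 4.98 in U-2OS vector arrays against 5.59 in the U-2OS control. ABCC3 had 0.91 on 208161_s_at and ABCC4 0.73 on 203196_at, both again with the mean of the vector arrays above control in KHOS and below it in U-2OS, while ABCC5 with 0.69 on 209380_s_at lay below control in both. On the negative side ABCG8 had -0.84, and it passed, at -1.35, when U-2OS miR-null was left out. ABCC8 had -0.60 on 210245_at, with 4.10 and 4.02 in KHOS vector arrays against 4.25 in the KHOS control, and 4.46 and 4.90 in U-2OS vector arrays against 4.27 in the U-2OS control. ABCG4 had -0.56, with 3.88 and 4.16 in KHOS vector arrays against 4.18 in the KHOS control, and 4.81 and 4.67 in U-2OS vector arrays against 4.33 in the U-2OS control. These 3 lay below control in KHOS and above it in U-2OS.

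The miR-1 plasmid was set against the empty one as its control in the design, and no member passed. Of 96 probe sets 0 were called in limma and 1 had an unadjusted p below 0.05, against 0 and 933 of all 54613, or 0% and 1.71%. The exact Mann-Whitney test named in the design text called 0 as well, since 2 miR-1 arrays against the other 4 cannot reach p below 0.133. The member with an unadjusted p below 0.05 was ABCC11, an exporter of organic anions and the gene of ear wax type, reading 3.73 with miR-1 against 3.41 with miR-null in KHOS, and 4.002 against 3.74 in U-2OS on 224146_s_at (0.30 ± 0.13, log2, SE).

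By at least 1.2-fold in both lines, 1 member was higher with miR-1 (ABCC11, 0.33 in KHOS and 0.26 in U-2OS) and 1 lower (ABCC13 on 1555265_at, -0.26 and -0.28). Over all probe sets 1.03% were higher and 2.02% lower by that rule, against 1.04% each for the members. ABCG8 had the largest positive value, 0.45, reading 4.36 with miR-1 against 4.48 with miR-null in KHOS, and 5.92 against 4.90 in U-2OS. ABCB11, the bile salt export pump, had 0.34 on 211224_s_at, reading 3.96 with miR-1 against 3.91 with miR-null in KHOS, and 4.53 against 3.90 in U-2OS. For both the U-2OS pair gave most of the difference. ABCC4 had 0.29 on 1554918_a_at, reading 6.59 with miR-1 against 6.08 with miR-null in KHOS, and 5.98 against 5.90 in U-2OS, and there the KHOS pair did. ABCA1 had 0.27 on 203504_s_at, reading 6.06 with miR-1 against 5.76 with miR-null in KHOS, and 4.16 against 3.91 in U-2OS. On their other probe sets ABCA1 had -0.07 to -0.02, ABCC4 -0.01 to 0.07, ABCC11 0.01 and ABCB11 -0.03.

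The most negative value, -0.62, was that of ABCC9 on 208561_at, reading 3.57 with miR-1 against 3.75 with miR-null in KHOS, and 5.67 against 6.74 in U-2OS. ABCF2 had -0.30 on 209246_at, reading 7.46 with miR-1 against 7.45 with miR-null in KHOS, and 7.11 against 7.73 in U-2OS. These too came mainly from the U-2OS pair. ABCC13 had -0.27 on 1555265_at, reading 3.30 with miR-1 against 3.57 with miR-null in KHOS, and 3.69 against 3.97 in U-2OS. ABCG1 had -0.26 on 230913_at, reading 4.06 with miR-1 against 4.22 with miR-null in KHOS, and 3.94 against 4.30 in U-2OS, and ABCC3 had -0.26 on 209641_s_at, reading 5.29 with miR-1 against 5.45 with miR-null in KHOS, and 5.48 against 5.84 in U-2OS. In these 3 the miR-1 array was the lower one in both lines, with 95% intervals that include 0. On their other probe sets ABCC9 had -0.21 to 0.19, ABCC13 -0.04 to 0.10 and ABCC3 -0.10 to 0.08.

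ABCB1 had 0.06 with miR-1 (95% interval -0.47 to 0.59) and ABCG2 -0.09 (-0.66 to 0.49). The 95% interval reached 0.22 to 0.87 to either side over the members, with a median of 0.44. Changes smaller than this could not be told from 0 here. Larger ones might not have passed either, since the intervals are not adjusted for the number of probe sets. Over all probe sets differences ran from -0.99 to 1.41 and none passed.

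**Figure D5:**
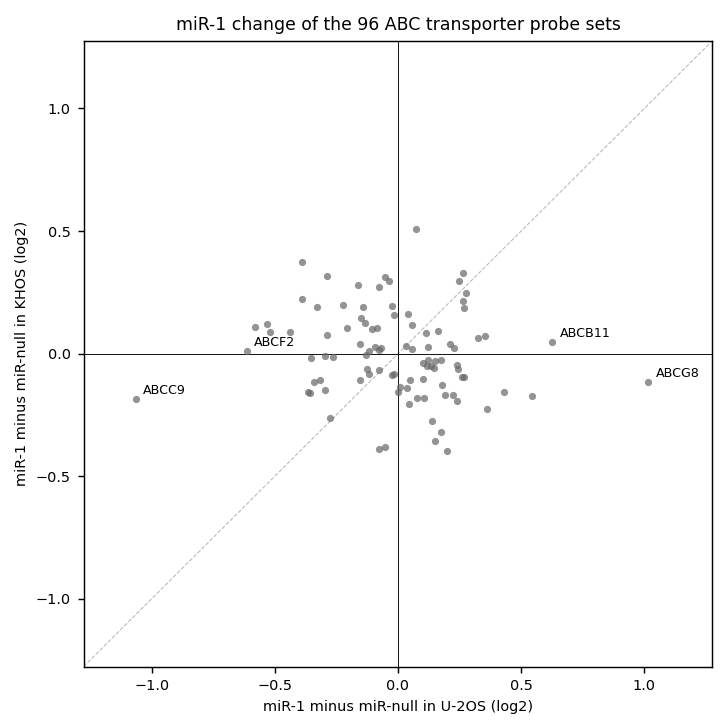
miR-1 minus miR-null difference (log2) of the 96 member probe sets, in KHOS on the vertical and U-2OS on the horizontal axis, 1 array per condition and line, with a dashed line where both are equal. Probe sets beyond 0.6 in either line are named. ABCG8 lies at 1.02 and ABCC9 at -1.06 in U-2OS, while in KHOS they lie at -0.12 and -0.19.

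Other genes of the pathway were read by their probe set with the highest mean. Among family genes with other symbols, TAP1, a peptide transporter of antigen presentation, had 9.25 and 9.93 in KHOS vector arrays against 8.21 in the KHOS control, and 7.98 and 8.03 in U-2OS vector arrays against 8.16 in the U-2OS control. It was higher in KHOS by 1.07 (adjusted p = 0.0119 in limma), and its vector change was larger in KHOS by 1.53 (adjusted p = 0.0419). The line difference of TAP1 lay in the vector arrays, as the controls of the lines were close (8.21 and 8.16). CFTR and TAP2 did not pass in any of these comparisons. Of 20 regulators of ABC transporter transcription 17 were measured, and 6 were higher and 4 lower in KHOS, where 33.6% of all probe sets, and 56.2% with 1 probe set per gene at or above the median level, passed. AHR, the receptor that senses dioxins, was higher by 4.85, its partner ARNT by 1.36, the sterol factor SREBF1 by 1.01, the oxidative stress factor NFE2L2 by 0.905, HIF1A by 0.55 and NR1H3, a sterol sensor that acts on ABCA1 and ABCG1, by 0.63.

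NR1H3 had 6.39, 6.49 and 6.19 in KHOS (miR-1, miR-null, control), against 6.16, 5.30 and 5.72 in U-2OS (adjusted p = 0.0453 in limma). The vitamin D receptor gene VDR was lower, with a difference of -0.999, as were PPARD (-0.71), HSF1 (-0.68) and ESR1 (-0.59). PPARG, the fat cell receptor, read 8.13 and 8.36 in KHOS vector arrays against 8.94 in the KHOS control, and 8.80 and 9.09 in U-2OS vector arrays against 8.41 in the U-2OS control. Its vector change differed between the lines by -1.23 (adjusted p = 0.0453). With the vectors themselves, 0 of the 17 regulators passed.

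The 3 other lists are read against the same shares. The 56.2% comes from a separate fit of genes at or above the median level. The lists were called without that filter and include genes below it, so the shares are not fully alike. Of 18 partners and acceptors 7 were higher and 4 lower in KHOS, or 11 called, near the 56.2% for 1 probe set per gene. PEX19, the chaperone that brings ABCD3 to peroxisomes, was higher by 0.80. LMBRD1 and MMACHC, which act with ABCD4 on vitamin B12, were higher by 0.63 and 0.59. The others higher were TAPBP (1.01), ETF1 (0.67), EIF2AK4 (0.65) and FECH (0.54). The 4 lower were KCNJ8, with a difference of -0.76, SLC25A37 (-0.68), APOE (-0.61) and EIF2S1 (-0.41). Of 18 genes of glutathione and conjugation 6 were higher and 6 lower, or 12 called, against the same 56.2%. The glutathione transferase GSTM3 was higher by 4.10, the ligase subunit GCLM by 1.15 and NQO1 by 1.53, while GSTA4 was lower, with a difference of -1.36 and MGST3 with -0.86. Of 20 other drug, copper and folate carriers 18 were measured, with 1 higher and 6 lower, or 7 called, under that 56.2% and near the 33.6% of all probe sets. SLCO4A1, an organic anion carrier, was higher by 2.69, SLCO1B3, a carrier of the liver, was lower, with a difference of -5.30, the folate receptor FOLR1 with -1.49 and the reduced folate carrier SLC19A1, which takes up methotrexate, with -0.59. FOLR1 also rose with the vectors by 0.67 (adjusted p = 0.0461), the only gene of these 4 lists to pass there. No gene of these lists passed between miR-1 and miR-null.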

How the data were processed

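RMA, run by the authors in Qlucore according to the design text, gave the deposited log2 values. That text also speaks of a scaling to each gene's average, which the table does not show. The values ran from 2.83 to 14.90 with 0 missing, and no detection calls were used. Of 54675 probe sets 62 controls were left out and 54613 tested. The annotation gave 41091 of these 1 symbol, 1801 several and 11721 none.

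The differences come from limma (version 3.58.1, under R 4.3.3), with an eBayes prior variance that follows the level, tested on simulated data, and adjusted over all 54613 probe sets by Benjamini-Hochberg at 0.05. The line and miR-1 contrasts had line and treatment as terms (2 residual degrees of freedom), the vector contrast line and vector (3), and the line difference in the vector change their product (2). Values are log2 differences with the standard error (SE), and intervals are 95%. Precision is limited by the 6 arrays.

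The members and lists were chosen with earlier results of these data known. Named members were those that passed, or, where under 5 passed, also the 5 largest rises and 5 largest falls. Alternatives were no trend, a filter at the median level, 1 probe set per gene with that filter, a further quantile normalization and centring on array medians. Others were leaving out each array, leaving out treatment or the control arrays, and the study's Mann-Whitney test with a 1.2-fold change.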

Additional observations from a re-analysis of the deposited data

Results flagged for a closer look

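ABCC9 on 208562_s_at had a vector change in KHOS that differed from that in U-2OS by -1.503 (log2, adjusted p = 0.0283 in limma), since both U-2OS vector arrays were above their control and the KHOS vector arrays were near theirs. Among the other genes of the pathway, the vector change differed between the lines by 1.53 for TAP1 (adjusted p = 0.0419) and by -1.23 for PPARG (adjusted p = 0.0453). Each of these rests on 1 control array per line.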

How the results depend on the processing

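Of the 22 member probe sets called between KHOS and U-2OS, 14 stayed past the threshold under every alternative fit that tested them, and 8 were lost under at least 1. The 14 included both of ABCB1, both of ABCC10, 2 of ABCA1, 2 of ABCC9 and those of ABCG1 and ABCE1. For the 2 of ABCC9 the lines lay closer in the control arrays than in the vector arrays. The number called was 13 of 39 tested with the median level filter, where 53.1% of all probe sets passed, 9 of 24 with 1 probe set per gene, where 56.2% passed, and 15 to 29 when 1 array was left out. The 8 lost calls were those of ABCB10, ABCC13, ABCD4, ABCG4, ABCG8, ABCC3 230682_x_at, ABCC9 208462_s_at and ABCD3 202850_at. Centring on array medians moved the median line difference of all probe sets by 0.12, and 18 were then called, 12 higher and 6 lower, against 12 and 10. Without the trend 18 were called, after quantile normalization 16 and without treatment as a term 19. Between vectors and control the count of 1 became 0 without the trend or with centred arrays, and 0 to 5 when 1 array was left out, 5 being without the KHOS control. For the line difference in the vector change the count of 1 became 0 without the trend, with the median level filter, which left both called or nearly called ABCC9 probe sets untested, or after quantile normalization. There it ran from 0 to 4 when 1 vector array was left out, 4 being without the U-2OS miR-null array, and a control array could not be left out. With 1 probe set per gene that count was again 1, but it was ABCA5 (1.21, adjusted p = 0.0497). Between miR-1 and miR-null the count was 0 under every alternative run, and leaving out 1 array turned the sign for 3 probe sets that did not pass, ABCC9 208561_at (-1.44 to 0.19, positive on dropping U-2OS miR-null), ABCF2 209246_at (-0.62 to 0.0185) and ABCG8 (-0.19 to 1.08), both turned by dropping U-2OS miR-1. The exact Mann-Whitney test called 0 in the 3 comparisons it was run on (not the line difference in the vector change), since it cannot go below p = 0.1 for 3 arrays against 3 or 0.133 for 2 against 4. The causes of these shifts were not tested. The treatment term already paired the arrays of the lines by condition, and the line term matched the arrays of a line in the other contrasts. No further block by replicate was possible because the labels number no replicates.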
